A study of Macaca mulatta with 5 samples.

Results

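The cells described here are the podocytes of the fetal rhesus kidney, taken as every cell that the study's own annotation names Podocyte (c20). There were 2016 such cells among 36039 cells of 5 libraries, and 20215 of all these cells carried a nephron-lineage name. All 5 libraries came from kidney of rhesus macaque (Macaca mulatta) fetuses, enriched for cortex and collected late in gestation, when nephrons are still being added. Libraries 600 and 628 are called dissected here: their cortex, from 2 donor kidneys, was cut out manually and broken up on ice with enzymes active in the cold and repeated pipetting. Libraries 623, 627 and 632 are called vortexed: their suspension, biased to cortex, was made by vortexing in a cold Bacillus licheniformis (B lich) mix. The labels gave no genotype, treatment, animal or exact gestational age per library.

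Podocytes are the epithelial cells that wrap the capillaries of the glomerulus, the filter at the head of each nephron. Their interlocking foot processes are bridged by the slit diaphragm, of which nephrin (NPHS1) is a core protein, while podocalyxin (PODXL) coats their surface and synaptopodin (SYNPO) organises actin in the foot processes. During kidney development they arise from the proximal end of the forming nephron, on the side away from the future distal tubule, and mature podocytes rarely divide. The deposited table had 0 columns of gene values. The podocyte name could therefore not be checked against NPHS1, PODXL, SYNPO or any other marker, and the name is the study's own. What the table does give for each cell is its name, its library and its place in the study's planar embedding, so the results below are numbers of cells, shares and positions.

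Podocytes were the most numerous of the 37 clusters in dissected library 600, with 1213 of 6839 cells, or 17.7% (exact 95% binomial interval 16.8 to 18.7). Dissected library 628 had 143 podocytes among 6329 cells, or 2.26% (1.91 to 2.66), where podocytes ranked 19th in size. In the vortexed libraries there were 251 podocytes among 9816 cells of library 623, or 2.56% (2.25 to 2.89), 300 among 10502 cells of library 627, or 2.86% (2.55 to 3.19), and 109 among 2553 cells of library 632, or 4.27% (3.52 to 5.13). The dissected libraries thus held both the highest and the lowest share, and the values of the preparations overlapped. Library 600 supplied 60.2% of all podocytes but 18.98% of all cells. The 4 other libraries averaged 2.99% ± 0.890 (SD, n = 4). The intervals cover counting error only, and a higher share of podocytes cannot be told apart from a lower number of all other cells.

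**Figure D1:**
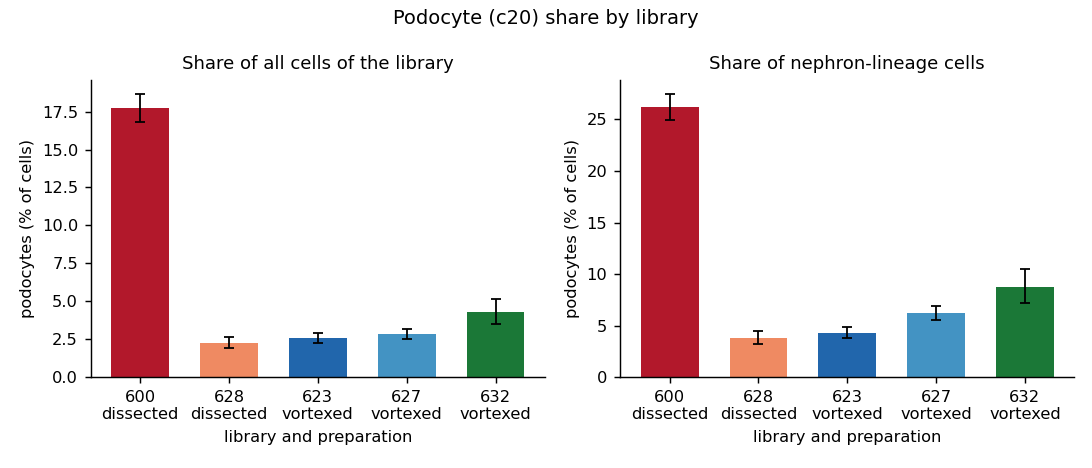
Podocytes as a share of all cells of each library (left) and of its nephron-lineage cells (right), in percent. Bars are single libraries, coloured by library, and error bars are exact 95% binomial intervals. Library 600, at 17.7% and 26.2%, stands above the other 4 libraries, which lie between 2.26% and 4.27% on the left and between 3.86% and 8.76% on the right.

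The nephron lineage was taken as the 13 clusters named for progenitors, differentiating cells, podocytes and tubule. Within it, podocytes made up 26.2% of library 600 (exact interval 24.9 to 27.5) and 3.86% of library 628 (3.26 to 4.53) after dissection. After vortexing they made up 4.33% of library 623 (3.82 to 4.88), 6.21% of library 627 (5.55 to 6.93) and 8.76% of library 632 (7.24 to 10.5). Podocytes were the largest of the 13 clusters in library 600, the 11th in 628, the 7th in 623, the 6th in 627 and the 5th in 632. The progenitor clusters NPC (c25) and Cap mesenchyme (c30), named for the cells that the nephron is built from, are part of this denominator, and the share of NPC (c25) differed 32.6-fold between libraries. With both progenitor clusters taken out, podocytes were 27.3% of the remaining lineage in library 600 and 5.59% in library 628, against 7.99%, 8.70% and 9.94% in libraries 623, 627 and 632. The order of the libraries was the same as before, and the 4 lower libraries lay closer together.

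The preparations were compared over libraries. The podocyte share averaged 10.00% ± 10.9 in the dissected libraries (SD, n = 2) and 3.23% ± 0.915 in the vortexed libraries (n = 3), a difference of 6.77 percentage points (exact two-sided permutation test, p = 0.4, where 2 against 3 libraries allow no p below 0.1). In limma, fitted on the log2 odds of the share over all 37 clusters, the podocyte log2 odds ratio of dissected to vortexed was 1.12 (SE 0.99, 95% interval -1.19 to 3.43, Benjamini-Hochberg adjusted p = 0.642). At an adjusted p under 0.05, limma called 0 of the 37 clusters (0%), while 5 had an unadjusted p under 0.05, podocytes not among them. Across all clusters, 11 of 37, or 29.7%, had shares that did not overlap between the preparations, all higher in the dissected libraries, and podocytes were not among these either. The podocyte share of nephron-lineage cells differed by 8.59 points, with 15.02% ± 15.8 in dissected (n = 2) and 6.43% ± 2.22 in vortexed libraries (n = 3; exact permutation p = 0.5). Without library 600, the log2 odds ratio turned to -0.49 and the lineage difference to -2.57 points, so the direction of both rested on that library. Without library 628, the log2 odds ratio was 2.73 with a limma adjusted p of 0.118. Preparation cannot be told apart here from gestational age or from any batch, which the labels did not give per library.

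Among the 37 clusters, podocytes had one of the most uneven distributions over the 5 libraries, and one of the most even over the 4 libraries other than 600. The coefficient of variation (CV, the SD over libraries as a percentage of the mean) of the podocyte share was 111.9% over 5 libraries, the 7th highest of 37, where the median cluster had 65.95%. Without library 600 it was 29.8%, the 33rd of 37, where the median cluster had 51.5%. This fall follows from leaving out the library where podocytes stood far above the rest. Most other clusters had their highest share in another library and kept it, so the rank without library 600 is a description only. The clusters next above podocytes in CV over 5 libraries were Endothelial (c5) at 131.1%, Endothelial cell (c2) at 116.2% and T cell (c32) at 113.8%, and those next below were pDC (c37) at 110.7%, NPC (c25) at 101.4% and Endothelial cell (c1) at 97.2%. Of these, c5 held 90 cells, c2 17, c32 117, c37 125 and c1 14, against 4293 for c25 and 2016 podocytes. Counting error therefore weighs more in the CV of the smaller clusters. Without library 600, the CV of NPC (c25) was still 82.0%, that of T cell (c32) 107.3% and that of pDC (c37) 94.7%, while that of Endothelial (c5) was 51.5%. The chi-square of podocyte numbers against all other cells was 592.9 per degree of freedom, the second highest after NPC (c25) with 688.5. This statistic grows with cluster size and treats cells as independent, so its rank does not compare unevenness between clusters of unlike size. Intercalated cell (c9), with the highest CV of 150.8%, had a chi-square of 164.7 per degree of freedom. Library 600 had the highest share of 11 of the 37 clusters, podocytes included. Among the nephron-lineage clusters these also included Differentiated NPC (c19), Broad proximal diff (c17), Proximal tubule (c7) and Distal convoluted tubule (c10), but their highest share was 3.91, 1.97, 2.67 and 2.85 times their lowest, whereas that of podocytes was 7.85 times the lowest. Outside the nephron lineage, the folds were larger for 3 clusters that were highest in library 600 and had cells in every library: 26.6 for Stromal-Microvascular (c4), 20.9 for Intercalated cell (c9) and 14.8 for Endothelial (c5), c4 and c9 being named after their values were seen. Podocytes per cell of these clusters were fewer in library 600 than in at least 1 other library, with 5.25 per c9 cell in library 600 and 8.94 in library 628, against 10.5, 17.6 and 7.79 in libraries 623, 627 and 632.

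**Figure D2:**
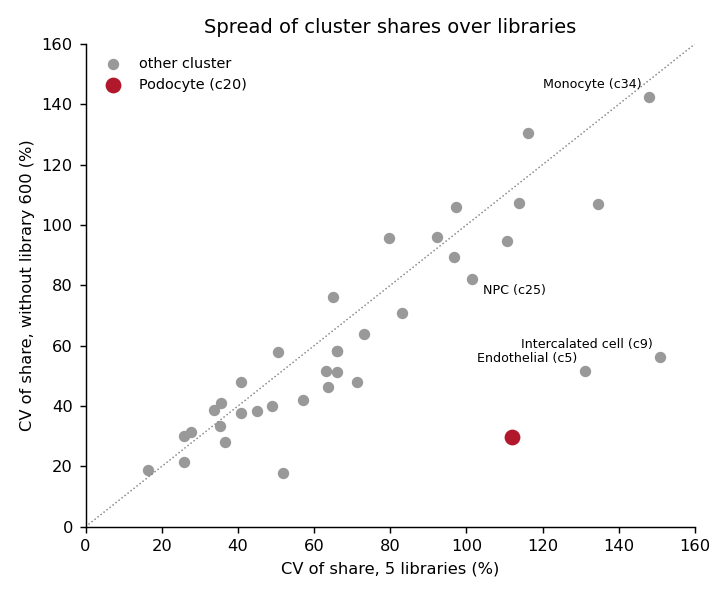
Coefficient of variation of each cluster's share, in percent, over 5 libraries (x axis) and over the 4 libraries other than 600 (y axis). Each point is 1 of 37 clusters, podocytes are in red, and the dotted line marks equal values. Podocytes lie at 111.9% and 29.8%, far below the dotted line, since the library left out is the one with their highest share.

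Ratios of podocytes to other classes do not depend on what else a library holds, and they differed in how far library 600 stood apart. There were 0.861 podocytes per proximal tubule cell in library 600 (exact interval 0.797 to 0.930) and 0.129 in library 628 (0.108 to 0.154), against 0.157 (0.137 to 0.180), 0.159 (0.140 to 0.180) and 0.170 (0.138 to 0.209) in vortexed libraries 623, 627 and 632. The proximal tubule, which reclaims most of the filtered load, directly follows the glomerulus in the nephron. In the 4 libraries other than 600, this ratio varied 1.32-fold, and their intervals all overlapped. Per cell of the stroma, here the clusters named interstitial, fibroblast and Stromal-Microvascular (c4), there were 1.56 podocytes in library 600 (1.43 to 1.71) and 0.160 in library 628 (0.133 to 0.191), against 0.155, 0.158 and 0.139 in libraries 623, 627 and 632, a range of 1.15-fold outside library 600. That evenness held for the sum of the stromal clusters only: cluster by cluster, the ratio outside library 600 varied between 2.26-fold, for Interstitial cell lineages (c22), and 12.2-fold, for c4, both extremes picked out after their values were seen. Early nephron cells, the 3 clusters of differentiating progeny, gave 0.885 podocytes per cell in library 600 and 0.170 in library 628, against 0.246, 0.268 and 0.402 in libraries 623, 627 and 632. Here the intervals of the lowest and the highest of the 4 other libraries did not overlap (0.142 to 0.204 in library 628, 0.319 to 0.504 in library 632).

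For the remaining classes, the 4 other libraries spread widely. Podocytes per nephron progenitor numbered 6.38 in library 600 and between 0.0943 and 0.736 elsewhere, and podocytes per immune cell 12.9 in library 600 and between 0.447 and 1.63 elsewhere. For the distal nephron (clusters c15, c12 and c10, named for the loop of Henle, its thick ascending limb and the distal convoluted tubule), library 600 had the highest ratio, 2.70, but library 627 followed with 2.04, library 632 with 1.42, library 623 with 0.926 and library 628 with 0.306. The collecting duct gave the same order of libraries, with 1.58 in library 600 at the top and 0.288 in library 628 at the bottom. Podocytes per endothelial cell, the cells that line vessels and the glomerular capillaries among them, were as frequent in library 632, at 15.6, as in library 600, at 15.4, and lowest in library 628, at 2.80. That value for library 632 rests on 7 endothelial cells. Library 628 therefore had the fewest podocytes per distal nephron, collecting duct, endothelial, early nephron and proximal tubule cell, while library 632 had the fewest per stromal and immune cell, library 623 per progenitor and library 627 per phase-named cell.

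**Figure D3:**
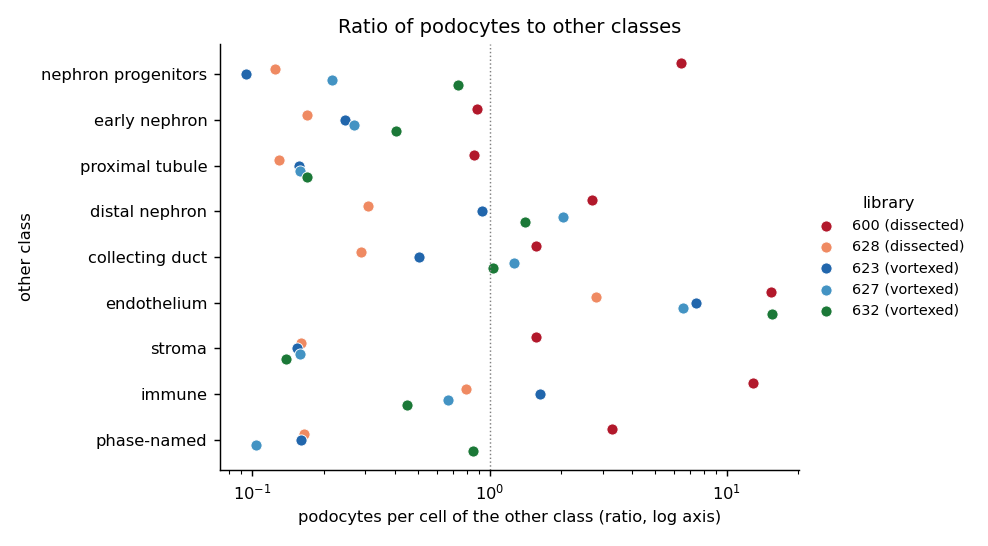
Podocytes per cell of 9 other classes (log axis), with 1 point per library, coloured by library and offset vertically so that points do not hide each other. For stroma and proximal tubule, 4 libraries lie within 1.15-fold and 1.32-fold of each other and library 600 lies far above them, while for distal nephron, collecting duct and endothelium the libraries spread without such a gap.

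None of the 9 ratios could be called different between the preparations. The mean log2 ratio of dissected minus vortexed libraries ran from -0.61 for distal nephron to 2.02 for immune cells, and the Benjamini-Hochberg adjusted exact permutation p was 0.9 for each of the 9. For stroma alone the values did not overlap between preparations (log2 ratios of 0.64 and -2.64 in dissected libraries and -2.69, -2.66 and -2.84 in vortexed libraries, exact permutation p = 0.1, the smallest possible), and the difference was 1.73 with library 600 and 0.091 without it. Without library 600, the differences for progenitors, early nephron, proximal tubule and phase-named cells were -0.99, -0.80, -0.33 and -0.55, where all 5 libraries gave 1.85, 0.38, 1.04 and 1.60. Without library 628, those for distal nephron, collecting duct and endothelium were 0.96, 0.86 and 0.79, where all 5 libraries gave -0.61, -0.37 and -0.44.

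By single cluster, library 600 also had the highest number of podocytes per cell for 11 of the 12 other nephron-lineage clusters. There were 2.03 podocytes per Proximal tubule (c18) cell in library 600 and 0.389 in library 628, against 0.411, 0.230 and 0.365 in libraries 623, 627 and 632. Per Proximal tubule (c8) cell there were 3.70 and 0.381 in the dissected libraries, against 0.618, 0.980 and 1.11 in the vortexed libraries. Per Proximal tubule (c7) cell there were 2.74 and 0.656, against 0.523, 1.18 and 0.796. The even ratio to the proximal tubule as a whole was thus not shared by each of its clusters, and Proximal tubule (c6) was the least even, from 0.973 to 14.3 outside library 600. Among the differentiating cells, podocytes per Broad proximal diff (c17) cell numbered 2.30 in library 600 and 0.426 in library 628, against 0.507, 0.429 and 1.09 in libraries 623, 627 and 632. Per Differentiated NPC (c14) cell there were 5.67 and 1.04 in the dissected libraries, against 1.16, 1.86 and 0.982 in the vortexed libraries. Differentiated NPC (c19) was nearly as rare beside podocytes in library 632, with 1.82 podocytes per cell, as in library 600, with 1.93. The exception was Thick ascending limb (c12), the salt-reabsorbing segment, with 6.25 podocytes per cell in library 627 and 4.63 in library 600.

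In the study's embedding, a layout in which cells with similar profiles lie close and whose axes have no unit, podocytes formed 1 main island on the left side. Podocytes were joined into islands where they lay within 0.5 units of each other. The main island held 1908 of the 2016 podocytes, centred at x = -8.10 and y = -0.68, with cells of all 5 libraries. It held 1130 podocytes of library 600 and 137 of library 628, against 243, 292 and 106 of libraries 623, 627 and 632. A second island of 67 podocytes lay 15.9 units away, at x = -0.87 and y = 13.5. The remaining 41 podocytes are called scattered here, although only 17 of them lay alone and the others formed small islands. The largest of these small islands held 12 podocytes, centred at x = 5.59 and y = 0.415. Of these, 2 came from library 600 and 2 from library 628, against 6 from library 623 and 2 from library 627. With only main-island podocytes counted, library 600 still had 16.5% podocytes and library 628 had 2.16%, against 2.48%, 2.78% and 4.15% in the vortexed libraries. Podocytes outside the main island were 6.84% in library 600 and 4.196% in library 628, against 3.19%, 2.67% and 2.75% in libraries 623, 627 and 632. The preparations did not overlap in this share (exact permutation p = 0.1, the smallest possible). For the scattered podocytes alone they did overlap.

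All 67 podocytes of the second island came from library 600, where they made up 5.52% of the podocytes. The nearest cells with another name were mostly Interstitial cell lineages (c22), at 93.1% of the nearest 15 within library 600 and 86.1% when cells of all 5 libraries were searched. Endothelial cell (c1) followed at 6.57% over all libraries, and its centre lay 2.27 units away. That cluster held 14 cells, 2 of them from library 600. Within library 600, c1 made up 0.199%, less than Endothelial (c5) at 3.28% and Endothelial cell (c2) at 2.19%. In a box around the island with a margin of 0.5 units there were 19 cells with other names, of which 18 were c22, and 17 of these came from library 600. The c22 cluster as a whole was centred elsewhere, at x = 4.04 and y = -8.08. Cluster c22 and these endothelial cells were singled out after their positions had been seen. Without the second island, podocytes made up 16.8% of library 600. Whether these 67 cells are podocytes, joined cells or another population was not tested, since the table holds neither gene values nor a doublet call.

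The 41 scattered podocytes came from every library, with 16 in library 600 and 6 in library 628, against 8, 8 and 3 in libraries 623, 627 and 632, or between 1.32% and 4.196% of a library's podocytes. By the single nearest cell, they lay beside 21 different names, none of which was nearest to more than 5 of them. Of the 41, 26 from all 5 libraries lay within 0.5 units of a second, separate island of Interstitial Cell Lineages (c24), which was centred at x = 4.27 and y = 0.14. The other 15 lay elsewhere, and how many cells of other names lie as close to that region was not measured.

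**Figure D4:**
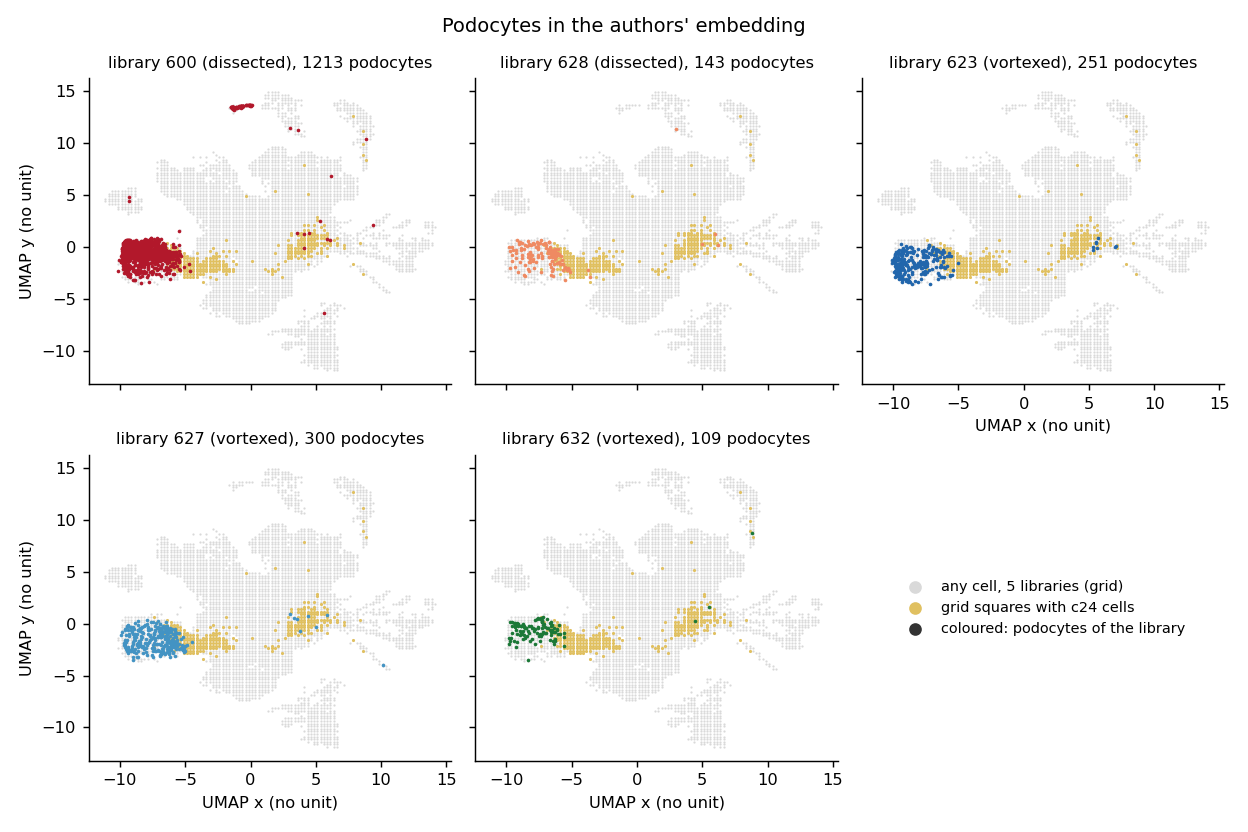
Podocytes of each library in the study's embedding (UMAP x and y, no unit). Each panel is 1 library with its podocytes in colour, grey squares mark where cells of any of the 5 libraries lie, and yellow squares mark those with Interstitial Cell Lineages (c24) cells. The main island is at the left in every panel, and the second island of 67 cells, near x = -0.87 and y = 13.5, appears for library 600 only.

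On the mean over libraries, podocytes were the most self-contained of the clusters compared in the layout. For each podocyte, the 15 nearest cells of the same library were examined, and 89.6% ± 4.14 of them (SD, n = 5) were podocytes. The share was 94.4% in library 600 and 84.1% in library 628, against 92.2%, 86.8% and 90.6% in libraries 623, 627 and 632. It was the highest mean of the 23 clusters with at least 20 cells in each library. Classical Monocyte (c35) followed at 81.9% ± 7.33 and Fibroblast (c21) at 74.4% ± 15.3, both named after their values were seen. In single libraries podocytes were not always highest, with c35 at 94.7% in library 627 and c21 at 86.4% in library 628. The next in the nephron lineage were Proximal tubule (c18) at 65.7% ± 5.58 and Proximal tubule (c8) at 62.8% ± 6.26, followed by Broad proximal diff (c17) at 53.3% ± 9.01, and the lowest was Cap mesenchyme (c30) at 33.5% ± 11.04. In library 628 podocytes were 2.26% of the cells and still had 84.1% podocytes among their neighbours. A fixed 15 neighbours reach farther out of a small cluster, so cluster size enters this ranking. Podocytes had at least 109 cells in a library, while c21 had 21 in library 600, where its share was 48.9%. These values are a description, since names and positions both derive from the same cells' transcripts.

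**Figure D5:**
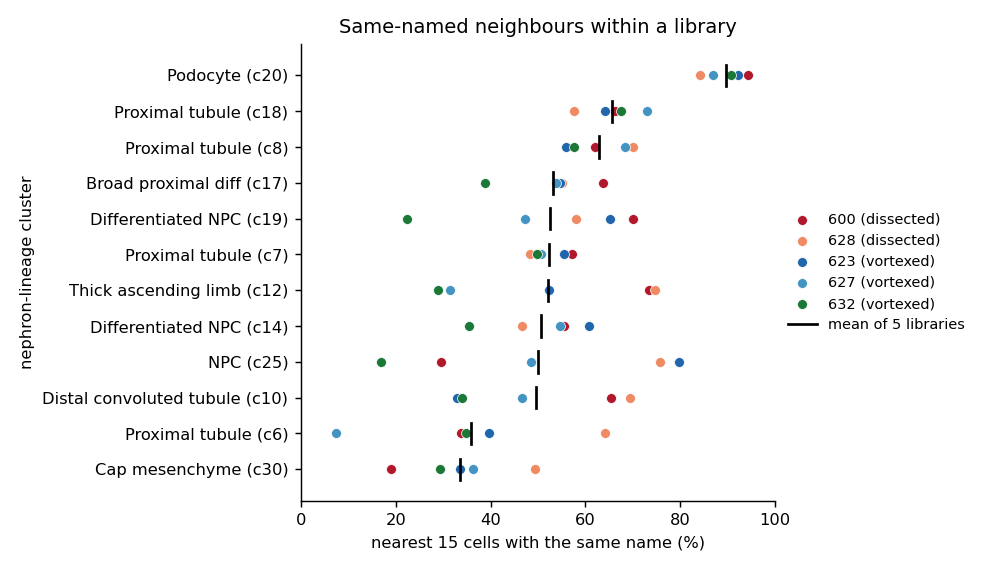
Percentage of a cell's 15 nearest cells of the same library that carry the same cluster name, for the 12 nephron-lineage clusters with at least 20 cells in each library. Points are libraries and black lines are means of 5 libraries. Podocytes lie between 84.1% and 94.4%, above all points of the other 11 clusters.

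Among cells with another name, those nearest to podocytes of all islands were mostly from 1 cluster, Interstitial Cell Lineages (c24), which the study named as interstitial. When each podocyte's 15 nearest cells with another name were taken, 86.9% ± 5.90 (SD, n = 5) were c24, against 2.80% of all cells with another name. The share of c24 was 79.4% in library 600 and 89.0% in library 628, against 82.0%, 92.8% and 91.3% in libraries 623, 627 and 632. Other nephron-lineage names made up only 1.43% ± 1.07 of these cells, with a range of 0.555% to 3.27%, although they were 53.5% of all cells with another name. Early nephron names, those of the 3 clusters of differentiating cells, made up 0.171% ± 0.0851, against 14.1% of the cells available. No cluster other than c24 reached 5% on the mean over libraries. In single libraries, Fibroblast (c26) reached 7.33% in library 623 and 5.50% in library 600, and Epithelial (c23) 6.27% in library 623. Interstitial cell lineages (c22) reached 5.19% in library 600. Each was picked out after its value was seen. The value for c22 includes the second island, where c22 made up 93.1% of the nearest cells within library 600, so it does not describe the edge of the main island.

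Cluster c24 held 1000 cells, of which 693 formed an island centred at x = -4.42 and y = -1.93. From the side of c24, podocytes made up 28.7% ± 11.5 of the nearest cells with another name and Fibroblast (c26) 27.1% ± 5.39. The podocyte part was 45.4% in library 600 and 32.8% in library 628, against 16.6%, 19.7% and 28.97% in libraries 623, 627 and 632. These values did not overlap between the preparations, a point picked out after they were seen. A split of 2 against 3 libraries allows no exact permutation p below 0.1. From the side of podocytes, the preparations overlapped in the c24 share (exact permutation p = 0.5) and in the share of podocytes among the nearest cells (p = 0.9). How many neighbour values of other clusters separate likewise was not counted. The number of podocytes per c24 cell was 6.85 in library 600 and 0.923 in library 628, against 1.46, 0.680 and 1.98 in libraries 623, 627 and 632. There were 101 cells with another name for which at least 8 of the 15 nearest cells were podocytes, and 86 of them, or 85.1%, were c24. By library these c24 cells numbered 43 in library 600 and 13 in library 628, against 4, 19 and 7 in libraries 623, 627 and 632. They were 24.3% and 8.39% of the c24 cells of the dissected libraries, against 2.33%, 4.31% and 12.7% in the vortexed libraries.

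The share of podocytes with only podocytes around them differed between libraries. It uses a fixed 15 neighbours, so it also depends on how many cells a library holds. Podocytes numbered 109 in library 632 and 1213 in library 600, and c24 cells 55 in library 632 and 441 in library 627. Podocytes whose 15 nearest cells were all podocytes made up 77.7% in library 600 and 49.7% in library 628, against 81.7%, 63.7% and 64.2% in libraries 623, 627 and 632. Podocytes with at least 1 c24 cell among the 15 were 15.99% and 43.4% in the dissected libraries, against 15.9%, 34.7% and 33.9% in the vortexed libraries. Library 623 thus had about as few podocytes at the c24 border as library 600, with 251 podocytes against 1213. Podocytes with no other podocyte among the 15 numbered 15 in library 600 and 6 in library 628, against 7, 9 and 3 in libraries 623, 627 and 632.

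Positions within the main island shifted between libraries along both axes. The median x was -8.30 in library 600 (quartiles -9.29 and -7.17) and -7.06 in library 628 (-8.30 and -6.43), against -8.65, -7.07 and -7.79 in libraries 623, 627 and 632. Libraries 627 and 628 lay nearer to c24 and library 623 farthest from it. The median y was -0.49 in library 600 and -0.73 in library 628, against -1.55, -1.68 and -0.52 in libraries 623, 627 and 632, so libraries 623 and 627 lay lower in the layout than the other 3. Neither axis separated the preparations (exact two-sided permutation p = 0.7 for x and 0.3 for y). The extent of the podocytes was similar in each library. Over podocytes of all islands, the median distance from the centre of the library's podocytes was 1.34 units in library 600 and 1.28 in library 628, against 1.37, 1.41 and 1.24 in libraries 623, 627 and 632 (difference of means -0.028, exact permutation p = 0.7). Within the main island it was 1.28 and 1.21 in the dissected libraries, against 1.34, 1.39 and 1.21 in the vortexed libraries (difference of means -0.069, exact permutation p = 0.4). Podocytes of library 600 were therefore as spread out as those of libraries with far fewer of them.

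To see whether podocytes of 1 library kept to themselves, every library was thinned to 100 podocytes, and the 15 nearest podocytes of each were examined. Podocytes of the same library made up 26.1% ± 2.85 of them (SD, n = 5), where an even mixture would give 19.8%. The share was 23.5% in library 600 and 26.1% in library 628, against 24.9%, 30.9% and 25.1% in libraries 623, 627 and 632. Library 600 had the lowest own-library share of the 5. Its high number of podocytes did not enter this measure, since every library was thinned to 100. The neighbours of library 600 podocytes came from library 632 in 23.7% and from library 627 in 14.8%. The lowest share of any pair was 12.7%, for neighbours from library 623 around podocytes of library 628. Among the 7 clusters with at least 100 cells in each library, own-library shares ran from 22.8% ± 1.46 for Proximal tubule (c18) to 26.5% ± 3.75 for Cap mesenchyme (c30), and podocytes ranked 6th, within 1 SD of Broad proximal diff (c17) at 25.1% ± 2.28.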

How the data were processed

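The authors made droplet single-cell RNA-seq libraries of the 3' end (10x Genomics), per the labels' protocols. Per the submitters' processing notes, the tools were Cell Ranger (6.0.1) and Seurat and the genome build was hg19, a human build, whose use is not described. How cells were filtered, doublets treated, libraries integrated and clusters made is not given in the sources used here. In the deposited table there is a row per cell with the authors' cluster name, library, species and 2 embedding coordinates, which are treated as scores with no unit. Depth is unknown.

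Rows were used where the library name matched a sample title. The table holds 11 other library names with 58227 rows, not analysed here, so species were not compared. Of the cells used, 286 had a barcode found in 2 or more of the libraries, 13 of them podocytes. The labels do not say whether each library is a separate animal, and p-values reflect only how these libraries vary, which may be technical.

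Cells were counted per cluster and library. Classes were joined by name. Shares have exact (Clopper-Pearson) intervals. Preparations were compared by limma 3.58.1 (R 4.3.3) on log2 odds with 0.5 cells added, for all clusters of at least 10 cells, and by exact permutation over libraries. The fit was also run on simulated data, with less spread between libraries than podocytes had here, so that run does not show how the fit performs on these data. Neighbours, islands and thinning used scipy 1.17.1. Besides podocytes, the text names nephron-lineage clusters, clusters of at least 5% of neighbours and the 3 nearest in CV on either side; others are named as chosen after their values were seen. The cells and lists were chosen with earlier results of these data known. Alternatives covered the transform, denominators, neighbour numbers, island distance and each library left out.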

Additional observations from a re-analysis of the deposited data

Results flagged for a closer look

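In 4 of 19 measures compared over the 5 libraries, library 600 lay so far from the next value that the gap took up most of the whole range, beyond the 95% limit of Dixon's ratio, which chance passes in about 1 in 20 groups. The measures share the same podocytes and are not independent. These were the podocyte share of the library (17.7%), the podocyte share of the nephron lineage (26.2%), the log2 ratio of podocytes to proximal tubule cells (-0.22) and the log2 ratio of podocytes to stromal cells (0.64). The share of podocytes outside the main island, 6.84% in library 600, did not pass the limit. What sets library 600 apart was not tested.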

How the results depend on the processing

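Of 145 alternative values, 127 kept their direction and their side of the threshold or stayed within the spread of libraries, and 12 changed sign. For results compared by permutation, the side of the threshold could not change. A split of 2 against 3 libraries allows no p below 0.1, and leaving out a library does not lower that limit. For these results the count describes direction only. Dropping the filter on low cell numbers left the same 37 clusters and the same limma values, so it was no separate check. Without library 600, the log2 odds ratio of the podocyte share was -0.49, the lineage difference -2.57 points, and the log2 ratio differences -0.99 for progenitors, -0.80 for early nephron, -0.33 for proximal tubule and -0.55 for phase-named cells. Without library 628, they were 0.96 for distal nephron, 0.86 for collecting duct and 0.79 for endothelium. With 1 library left out, the log2 odds ratio ranged from -0.49 to 2.73, the lineage difference from -2.57 to 19.8 points, the CV from 29.8% to 119.5% and the difference in median distance from -0.078 to 0.0058. That difference was 0.0041 without library 628, 0.0058 without library 627, and 0.247 with the 90th percentile of distance. Left-out ranges of the log2 ratio differences were -0.99 to 4.69 for progenitors, -0.80 to 1.57 for early nephron, -0.33 to 2.41 for proximal tubule, -2.18 to 0.96 for distal nephron, -1.59 to 0.86 for collecting duct, -1.66 to 0.79 for endothelium, 0.091 to 3.37 for stroma, 0.016 to 4.03 for immune cells and -0.55 to 3.75 for phase-named cells. The share of c24 among neighbours was 77.4% with 50 neighbours, and 5.92% of podocytes lay outside the main island when cells were joined within 0.25 units. The causes were not tested. Limma called 0 clusters in every alternative, with adjusted p for podocytes between 0.118 and 0.969. No paired analysis was possible because the preparations share no library numbers. The island analysis and the share of podocytes among nearest cells were added after the data were examined. With 5 libraries, only differences far larger than those between libraries could be called by limma, and none could be called by permutation.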
